A study of Mus musculus with 6 samples.

Results

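The genes of the T cell receptor complex and its first signaling steps were followed in brown adipose tissue (BAT) of mice that lack the soluble receptor sST2. They are Cd3d, Cd3e, Cd3g, Cd247, Lck, Zap70, Lat, Cd2 and Cd28, chosen by gene symbol for their place at the receptor, and all 9 were found among the 35976 rows of the deposited count table and among the 14542 genes tested. RNA-seq was performed on the BAT of 3 wild-type (WT) littermates and 3 sST2-KO mice, all male C57BL/6J mice of 10 weeks. Both groups had been subjected to surgical BAT denervation, were kept for 7 days at 30 °C and were then exposed to 10 °C for 8 h, so the WT mice carried the denervation and the cold as well. sST2-KO mice carry a CRISPR/Cas9 deletion, in every cell, of the Il1rl1 intron that lies between exon 8 and exon 9, which removes the soluble form of the IL-33 receptor and leaves the membrane form ST2L. The comparison asks how the BAT transcriptome differs between the genotypes when the tissue is cold but not innervated.

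A T cell receptor recognizes peptide on MHC molecules but has almost no cytoplasmic part of its own. Its signal passes through the CD3 chains and the zeta chain, whose tails carry immunoreceptor tyrosine-based activation motifs (ITAMs). The kinase LCK phosphorylates these motifs, ZAP70 docks on them and phosphorylates the adaptor LAT, and CD2 and CD28 add adhesion and a costimulatory signal. T cells are a minor resident population of adipose tissue, where regulatory, helper and cytotoxic T cells and innate-like T cells have all been described.

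The sequences of the ITAMs are shown first because they set the CD3 chains apart from the other 5 genes. In the principal protein-coding transcripts of the GENCODE annotation (GRCm39), Cd3d, Cd3e and Cd3g on chromosome 9 encode 1 ITAM each, Cd247 on chromosome 1 encodes 3, and Lck, Zap70, Lat, Cd2 and Cd28 encode none. Capitals mark the codons of the tyrosines that define the motif and of the leucine or isoleucine that follow them. A further tyrosine codon inside the Cd3g stretch (tat) is in lower case. These exonic coding bases, written 5′ to 3′ on the coding strand, cover residues 149 to 163 of CD3 delta, 170 to 184 of CD3 epsilon, 160 to 174 of CD3 gamma, and 72 to 86, 111 to 126 and 142 to 156 of the zeta chain.
Cd3d ITAM: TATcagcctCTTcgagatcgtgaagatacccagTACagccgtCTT
Cd3e ITAM: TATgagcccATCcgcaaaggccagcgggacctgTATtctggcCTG
Cd3g ITAM: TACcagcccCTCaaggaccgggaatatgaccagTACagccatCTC
Cd247 ITAM 1: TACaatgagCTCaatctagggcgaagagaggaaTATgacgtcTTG
Cd247 ITAM 2: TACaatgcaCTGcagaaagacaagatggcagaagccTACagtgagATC
Cd247 ITAM 3: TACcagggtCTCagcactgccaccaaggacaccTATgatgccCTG
The motifs of Cd3d, Cd3e, Cd3g and motifs 1 and 3 of Cd247 are 45 bases long, and motif 2 of Cd247 is 48 bases long.

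Cd3d, Cd3e and Cd3g lie together on chromosome 9 within 40056 bases. Cd3d (chr9:44893083-44899173, plus strand) and Cd3g (chr9:44880870-44891735, minus strand) start 1348 bases apart and run in opposite directions, and Cd3e (chr9:44910037-44920925, minus strand) follows. Cd247 is at chr1:165616250-165704846 (plus strand). The other genes lie apart, Lck at chr4:129442137-129467434 (minus), Zap70 at chr1:36800837-36821905 (plus), Lat at chr7:125962996-125968810 (minus), Cd2 at chr3:101183215-101195458 (minus) and Cd28 at chr1:60755959-60812518 (plus).

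Because the CD3 genes were all higher in sST2-KO, their promoters are shown, as the RefSeq windows of 250 bases before to 50 bases after the start. The windows were placed on GRCm39 by an exact match of their sequence, at chr9:44892834-44893133 (plus) for Cd3d, chr9:44891680-44891979 (minus) for Cd3g, chr9:44920860-44921159 (minus) for Cd3e and chr1:165616000-165616299 (plus) for Cd247. Capitals mark the E-box CAGGTG, on either strand.
Cd3d promoter: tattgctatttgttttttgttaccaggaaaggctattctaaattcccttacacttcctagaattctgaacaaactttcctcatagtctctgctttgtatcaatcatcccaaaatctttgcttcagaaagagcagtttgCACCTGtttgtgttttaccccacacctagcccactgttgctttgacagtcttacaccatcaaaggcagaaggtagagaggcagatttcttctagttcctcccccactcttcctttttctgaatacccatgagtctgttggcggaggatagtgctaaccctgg
Cd3g promoter: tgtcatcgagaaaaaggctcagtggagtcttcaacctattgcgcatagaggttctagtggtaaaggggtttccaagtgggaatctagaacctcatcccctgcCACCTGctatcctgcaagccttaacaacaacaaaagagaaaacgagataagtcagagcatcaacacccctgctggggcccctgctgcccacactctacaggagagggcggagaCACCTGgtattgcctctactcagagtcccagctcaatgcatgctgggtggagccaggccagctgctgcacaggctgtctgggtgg
Cd3e promoter: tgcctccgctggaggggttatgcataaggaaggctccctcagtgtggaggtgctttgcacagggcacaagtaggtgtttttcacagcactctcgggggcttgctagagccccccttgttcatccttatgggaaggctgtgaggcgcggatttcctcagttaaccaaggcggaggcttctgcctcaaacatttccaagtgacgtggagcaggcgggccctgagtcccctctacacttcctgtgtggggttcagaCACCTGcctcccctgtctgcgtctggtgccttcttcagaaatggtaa
Cd247 promoter: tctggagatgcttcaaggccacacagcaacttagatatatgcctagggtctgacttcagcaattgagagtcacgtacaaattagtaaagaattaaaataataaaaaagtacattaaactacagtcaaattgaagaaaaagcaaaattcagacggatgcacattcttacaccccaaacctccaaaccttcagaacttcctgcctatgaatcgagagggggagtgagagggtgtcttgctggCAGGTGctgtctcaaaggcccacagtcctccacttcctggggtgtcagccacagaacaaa
RefSeq promoters were matched for 7 of the 9 genes, 10 windows in all, with none matched for Cd2 and Cd28. The E-box CAGGTG was found in 8 of the 10 windows and in 6 of the 7 genes, and in 20.2% of all 32841 RefSeq promoters. The ETS core GGAAG was in 8 of the 10 windows against 71.4% of all promoters, and the RUNX sequence TGTGGT in 3 of 10 against 16.8%. The TATA box TATAAA was in none of the 10 windows and in 13.6% of all promoters. All motifs were searched on both strands, and none of the 4 holds another. These matches describe the letters of the windows, and binding was not measured.

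The libraries held 8159442 to 12874809 counts, and counts are given below as CPM after edgeR's TMM scaling. A gene was called when edgeR's quasi-likelihood test gave a Benjamini-Hochberg adjusted p under 0.05 over all genes tested and the fold change was above 2. Among the 14542 genes tested, 1315 (9.04%) were called higher in sST2-KO and 1033 (7.1%) lower, and 3173 (21.8%) had every sST2-KO library above every WT library. Scaling by total counts gave 1840 higher and 691 lower and moved the median log2 fold change of all genes from 0.03 to 0.29. Il1rl1 itself had 19, 19 and 6 counts in WT and 55, 69 and 142 in sST2-KO. The deleted intron holds the stop codon of sST2. These counts add up sST2 and ST2L over the whole gene, so they do not check the genotype. The labels give 3 numbered samples per group and no more about the mice, and p-values measure only the spread between these samples.

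All 9 genes were called higher in sST2-KO, against 9.04% of all genes tested, and in all 9 every sST2-KO library was above every WT library, against 21.8% of all genes. The 9 genes were chosen with earlier results of these data known, so these contrasts are a description and not a test. Their median log2 fold change was 3.00, while the median of all genes tested was 0.03 and that of the 1315 genes called higher was 1.99. The single log2 fold changes ran from 1.91 for Cd247 to 3.62 for Cd3g, with standard errors of 0.22 to 0.46 and adjusted p of 0.00563 to 0.0136. By p-value, all of them were among the first 242 of the 14542 genes, with Cd2 in place 3 and Lck in place 5. WT libraries held only 3 to 57 counts of each gene, and sST2-KO libraries 65 to 507, so the WT levels are the less precise side of each fold change. Without WT replicate 3, 5 of the 9 genes remained past the threshold, and the calls of Cd3e, Cd247, Lat and Cd28 were lost, with adjusted p of 0.0517 to 0.0614 and log2 fold changes of 1.95 to 3.12. In that fit only 36 of all genes tested were called higher. In bulk tissue, more T cells, more RNA per T cell, other lymphocytes with these transcripts and a changed tissue makeup cannot be told apart.

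**Figure D1:**
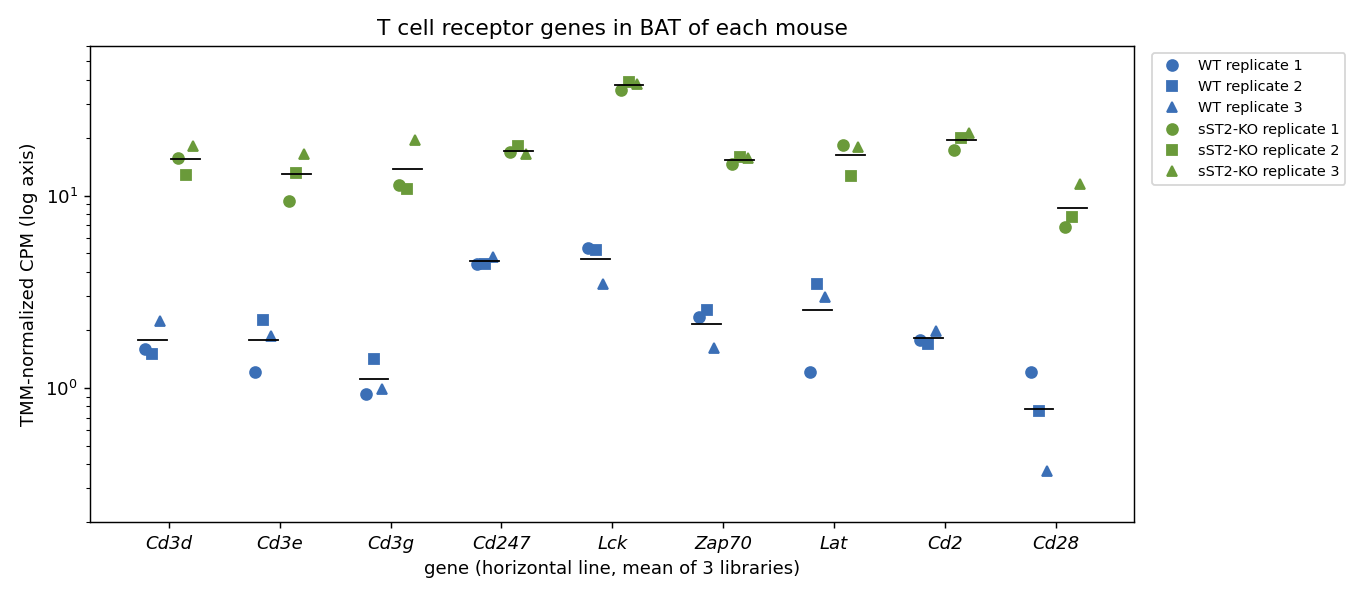
TMM-normalized CPM (log axis) of the 9 T cell receptor genes in each library, with blue symbols for the 3 WT mice, green symbols for the 3 sST2-KO mice and a horizontal line at each group's mean. In every gene the 3 sST2-KO libraries lie above the 3 WT libraries, with Lck highest at 35.3 to 39.0 CPM in sST2-KO.

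The CD3 chains are signaling subunits that assemble with the T cell receptor. Cd3d, the delta chain, was at 1.59, 1.51 and 2.22 CPM in WT replicates 1 to 3 and at 15.6, 12.8 and 18.1 CPM in sST2-KO replicates 1 to 3. The groups did not overlap, and the lowest sST2-KO library was well above the highest WT library. The mean rose from 1.77 ± 0.390 to 15.5 ± 2.63 CPM (SD, n = 3 each), a log2 fold change of 3.13 (SE 0.29) with an edgeR adjusted p of 0.00900.

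Cd3e, the epsilon chain that pairs with both delta and gamma, was at 1.21, 2.26 and 1.85 CPM in WT and at 9.34, 13.2 and 16.4 CPM in sST2-KO. Its sST2-KO libraries were spread more widely than those of Cd3d, with replicate 1 lowest and replicate 3 highest. The log2 fold change was 2.86 (SE 0.36), with an edgeR adjusted p of 0.0118. Cd3g, the gamma chain, was at 0.933, 1.41 and 0.986 CPM in WT and at 11.3, 10.8 and 19.4 CPM in sST2-KO. sST2-KO replicate 3 stood above the other two, and the highest sST2-KO value was 1.79 times the lowest, the widest ratio among the 9 genes. Cd3g had the largest log2 fold change of the 9 genes, 3.62 (SE 0.37), with an edgeR adjusted p of 0.00900.

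Cd247 encodes the zeta chain, which also serves receptors of natural killer (NK) cells. It was at 4.38, 4.43 and 4.81 CPM in WT and at 16.8, 18.0 and 16.4 CPM in sST2-KO. Both groups were tight, and the WT level was the least far from that of sST2-KO among the 9 genes. Its log2 fold change was 1.91 (SE 0.22), with an edgeR adjusted p of 0.00932. Pou2f1, a transcription factor gene on the opposite strand, shares 3007 exon bases with Cd247, and whether reads were counted by strand is not given in the sources used here. Pou2f1 was at 7.35 to 13.2 CPM in WT and at 13.1 to 13.9 CPM in sST2-KO, with a log2 fold change of 0.34 (edgeR adjusted p = 0.405).

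The zeta chain was set against the other chains within each library, after the values had been seen. The log2 level of Cd247 minus the mean log2 level of Cd3d, Cd3e and Cd3g, each with 0.5 CPM added, was 1.50, 1.17 and 1.33 in WT and 0.49, 0.54 and -0.12 in sST2-KO. The 3 sST2-KO libraries were all below the 3 WT libraries, with a mean difference of -1.03. The exact two-sided permutation p was 0.1, the smallest that 3 libraries against 3 allow, and the adjusted p over the 5 ratios computed was 0.125. The share of the Cd247 reads that came from Pou2f1 transcripts or from NK cells was not tested.

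LCK and ZAP70 are the kinases that start the signal, LCK bound to the co-receptors and ZAP70 to phosphorylated ITAMs. Lck was at 5.32, 5.18 and 3.45 CPM in WT and at 35.3, 39.0 and 38.0 CPM in sST2-KO. The sST2-KO libraries differed from each other by no more than 1.10 times, and WT replicate 3 was the lowest of the WT libraries. The mean rose from 4.65 ± 1.04 to 37.5 ± 1.91 CPM (SD, n = 3 each), a log2 fold change of 3.00 (SE 0.23) with an edgeR adjusted p of 0.00596. Zap70 was at 2.33, 2.54 and 1.60 CPM in WT and at 14.6, 15.8 and 15.7 CPM in sST2-KO. Like Lck it was nearly level across the sST2-KO mice, where its highest value was 1.08 times its lowest, the narrowest ratio among the 9 genes. The log2 fold change of Zap70 was 2.81 (SE 0.27), with an edgeR adjusted p of 0.00900.

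LAT is the membrane adaptor that ZAP70 phosphorylates and on which the enzymes of the later steps assemble. Lat was at 1.21, 3.49 and 2.96 CPM in WT and at 18.3, 12.7 and 17.9 CPM in sST2-KO. WT replicate 1 was far below the other WT libraries, and the groups did not overlap. The log2 fold change of Lat was 2.68 (SE 0.41), and its edgeR adjusted p of 0.0136 was the highest of the 9 genes.

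CD2 is the adhesion receptor for CD48 on neighboring cells, and CD28 is the costimulatory receptor for CD80 and CD86. Cd2 was at 1.77, 1.70 and 1.97 CPM in WT and at 17.3, 19.8 and 21.1 CPM in sST2-KO. Both groups were tight, and the distance between them was large against the spread within either. The mean rose from 1.81 ± 0.143 to 19.4 ± 1.96 CPM (SD, n = 3 each), a log2 fold change of 3.41 (SE 0.25) with an edgeR adjusted p of 0.00563. Cd28 was at 1.21, 0.754 and 0.370 CPM in WT, from 13, 8 and 3 counts, and at 6.83, 7.71 and 11.5 CPM in sST2-KO. Its WT mean was the lowest and its WT values were the most scattered of the 9 genes, by a factor of 3.28 between the highest and the lowest. The log2 fold change of Cd28 was 3.42 (SE 0.46), with an edgeR adjusted p of 0.0122.

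**Figure D2:**
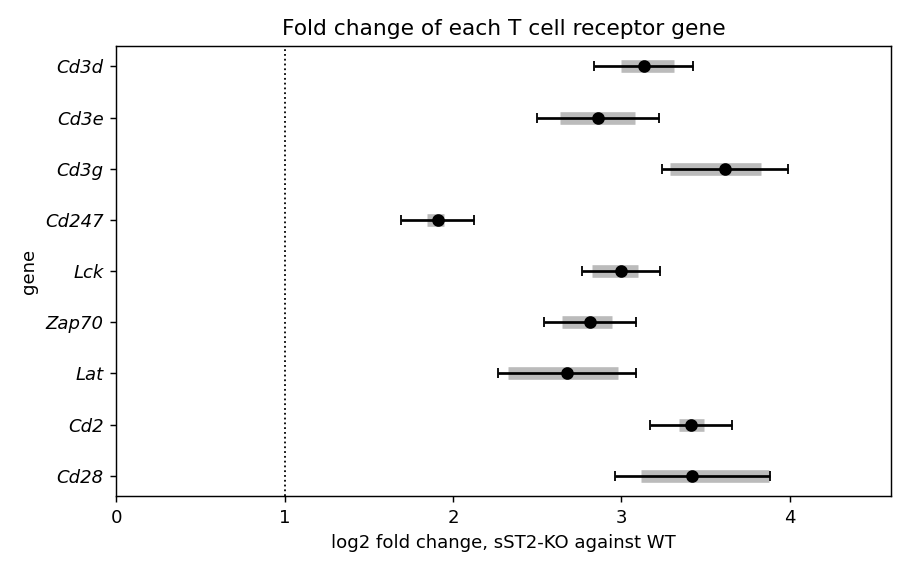
Log2 fold change of sST2-KO against WT for each of the 9 genes, with black points for the fitted value, black bars for its standard error and gray bars for the range over the 6 fits that each leave out 1 library. The dotted line marks a log2 fold change of 1, and the gray bars of all 9 genes, from 1.85 to 3.88, lie to its right.

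Levels of different genes can be compared only per length, so CPM was divided by the length of the principal transcript in kilobases. In sST2-KO, Lck was highest at 17.1 ± 0.874 CPM per kilobase (SD, n = 3), followed by Cd2 at 14.3 ± 1.44, Cd3g at 13.4 ± 4.67, Lat at 12.1 ± 2.33, Cd247 at 10.4 ± 0.523, Cd3e at 8.86 ± 2.41, Cd3d at 7.20 ± 1.22 and Zap70 at 6.39 ± 0.266. From Cd2 to Zap70, each gene and the next in this order differed by less than the sum of their SDs. Cd28 was lowest in sST2-KO at 1.99 ± 0.565 CPM per kilobase. In WT, Cd247 was highest at 2.77 ± 0.142 CPM per kilobase, above Lck at 2.12 ± 0.475, and Cd28 was again lowest at 0.179 ± 0.0971. Both orders depend on the length chosen and were not recomputed with other lengths. All annotated exons together cover 5887 bases in Cd247 and 3148 in Lck, against 1640 and 2190 in the principal transcripts. Exon bases that Cd247 shares with Pou2f1 add to this limit.

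The summed level of the 9 genes was 20.0, 23.3 and 20.2 CPM in WT and 145, 150 and 174 CPM in sST2-KO. The sST2-KO libraries were thus close to each other in this sum, by a factor of 1.20 between highest and lowest. Among the 9 genes this factor ran from 1.08 to 1.79 with a median of 1.41, and its median over the 1315 genes called higher was 2.03. sST2-KO replicate 3 was the highest library in 1027 (78.1%) of the genes called higher and in 5 of the 9 T cell receptor genes (Cd3d, Cd3e, Cd3g, Cd2 and Cd28). Without sST2-KO replicate 3, all 9 genes remained called, with 683 genes called higher in all.

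Other genes of T cell receptor signaling were taken from a list of 61 genes, of which 54 were in the table and 53 were tested. This list, too, was written with earlier results of these data known. The 7 constant regions of the receptor chains on the list were not analysed here. Of the 53 genes, 33 were called higher, against 9.04% of all genes tested, 1 was called lower, against 7.1%, and 19 were not called. Their median log2 fold change was 2.03, or 2.00 with Themis and Sit1, which had 3 counts or fewer in each WT library, set to their lower bounds. Among the 40 genes with at least 10 counts in every library, 22 were called higher, and under that filter 1015 genes in all were called higher. The count of 33 fell to 22 without WT replicate 2 and to 6 without WT replicate 3, and rose to 40 under scaling by total counts. Over all genes tested, 391 were called higher without WT replicate 2, the fewest without WT replicate 3, and 1840 under scaling by total counts.

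**Figure D3:**
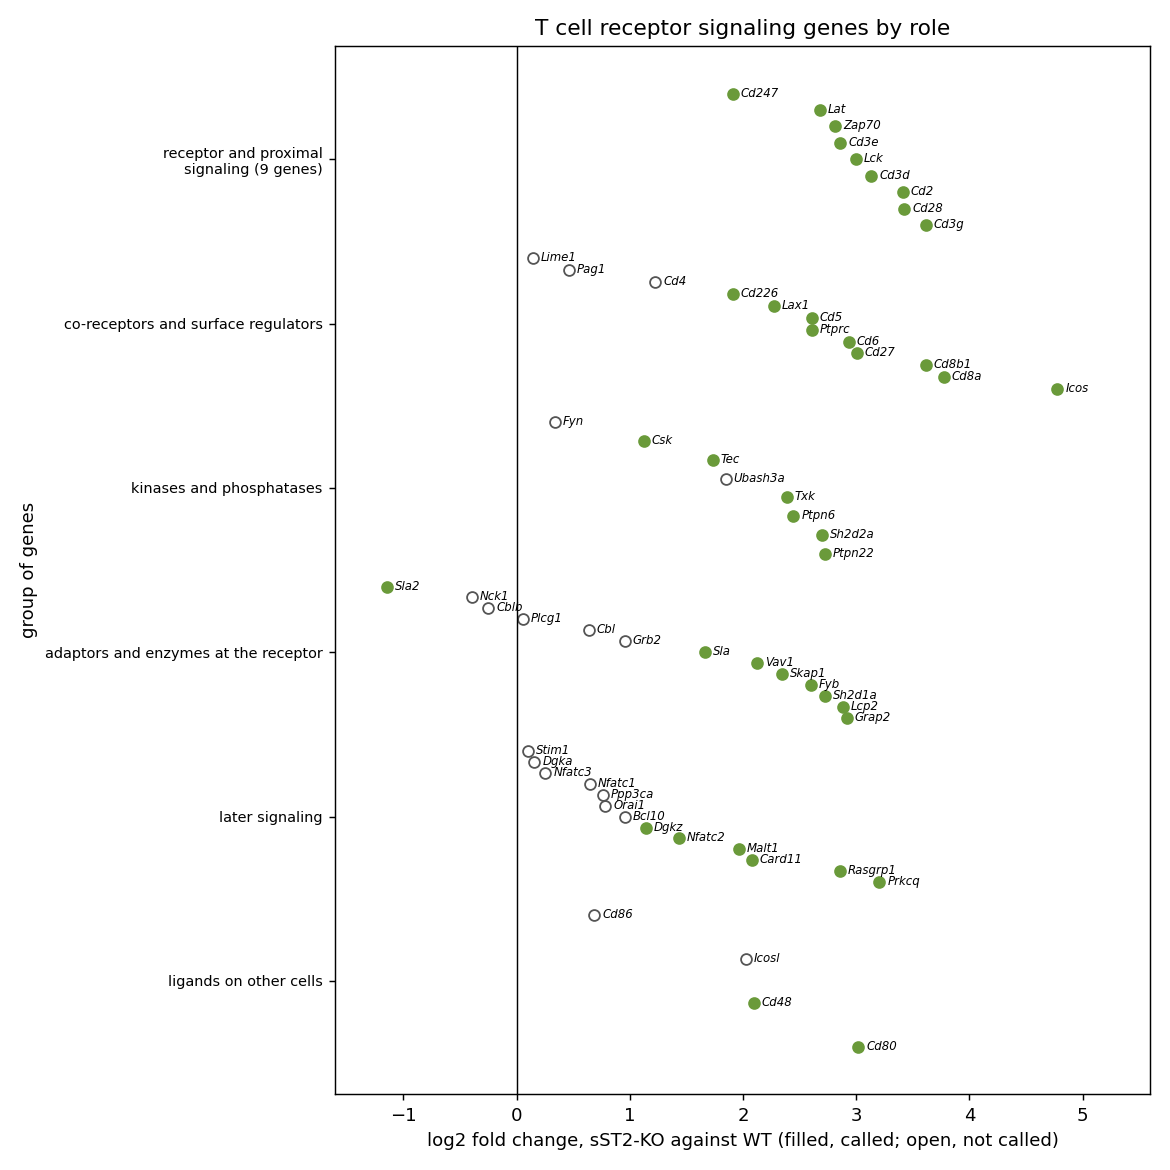
Log2 fold change of sST2-KO against WT for the 9 T cell receptor genes and for 50 other tested genes of T cell receptor signaling, grouped by role, with filled points for called and open points for uncalled genes (Themis and Sit1, with too few WT counts for a fold change, are left out). The 9 genes lie between 1.91 and 3.62, and Sla2 at -1.14 is the only called gene left of 0.

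Among co-receptors and surface regulators, 10 of the 13 genes tested were called higher and none lower, against 9.04% and 7.1% of all genes tested. Their median log2 fold change was 2.61. Cd8a and Cd8b1 encode the co-receptor of cytotoxic T cells. Cd8a was at 1.21, 2.26 and 3.21 CPM in WT and at 31.5, 24.6 and 34.6 CPM in sST2-KO, a log2 fold change of 3.77 (SE 0.37, edgeR adjusted p = 0.00900). Cd8b1 was at 1.03, 1.51 and 2.59 CPM in WT and at 19.0, 16.4 and 26.7 CPM in sST2-KO, a log2 fold change of 3.61 (SE 0.40, edgeR adjusted p = 0.00912). Both CD8 genes were clearly separated between the genotypes. Cd4, which encodes the co-receptor of helper and regulatory T cells, was at 1.87, 0.754 and 1.85 CPM in WT and at 4.04, 3.20 and 3.16 CPM in sST2-KO. All sST2-KO libraries were above all WT libraries, but the log2 fold change of 1.23 (SE 0.42) did not pass the test (edgeR adjusted p = 0.0758). It passed under scaling by total counts, with a log2 fold change of 1.49 and an adjusted p of 0.0462.

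The log2 level of Cd8a minus that of Cd4 within a library, each with 0.5 CPM added, was -0.47, 1.14 and 0.66 in WT and 2.82, 2.76 and 3.26 in sST2-KO. This ratio was chosen after the values had been seen. It was higher in all 3 sST2-KO libraries, with a mean difference of 2.50, or 5.66-fold. Its exact two-sided permutation p was 0.1, the smallest possible, and the adjusted p over the 5 ratios was 0.125. The Cd4 counts behind it were 8 to 20 in WT and 27 to 58 in sST2-KO.

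Icos, the inducible costimulator of activated T cells, had the largest log2 fold change of the surface group, 4.78 (SE 0.34, edgeR adjusted p = 0.00563), from 3 to 7 counts in WT to 136 to 178 in sST2-KO. Cd5 and Cd6, scavenger-receptor-type regulators of the receptor's signal, were also called higher. Their log2 fold changes were 2.61 (SE 0.52) for Cd5 and 2.94 (SE 0.31) for Cd6. The smallest change in this group was that of Lime1, a membrane adaptor, at 0.14 (SE 0.18, edgeR adjusted p = 0.618). Lime1 shares 2157 exon bases with Zgpat on the same strand, whose log2 fold change was -0.69. Pag1, with a log2 fold change of 0.46, was the remaining gene of the group that was not called. Trat1, with 0, 1 and 0 counts in WT and 11, 3 and 4 in sST2-KO, was not tested.

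Among kinases and phosphatases, 7 of 9 genes were called higher and none lower, against 9.04% and 7.1% of all genes tested. Their median log2 fold change was 2.39. Fyn, the SRC-family relative of Lck that many cell types express, had the smallest at 0.34 (SE 0.25, edgeR adjusted p = 0.365), and its groups overlapped at 59.0 to 84.5 CPM in WT and 65.2 to 111 CPM in sST2-KO. Ubash3a, with a log2 fold change of 1.85 (SE 0.59), was the other gene that did not pass (edgeR adjusted p = 0.0636).

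Among adaptors and enzymes at the receptor, 8 of 14 genes were called higher and 1 lower, against 9.04% and 7.1% of all genes tested. Their median log2 fold change was 1.90. Themis, needed for T cell development in the thymus, had 3, 0 and 0 counts in WT and 116, 42 and 81 in sST2-KO, at least 22.6-fold higher against a floor of 3 counts per library. Lcp2, the adaptor SLP-76, was higher by 2.88 (SE 0.50, edgeR adjusted p = 0.0154) and Vav1, a nucleotide exchange factor of small GTPases, by 2.12 (SE 0.30, edgeR adjusted p = 0.0133) on the log2 scale. Both are used by other leukocytes too, and both were highest in sST2-KO replicate 3, at 125 CPM for Lcp2 and 75.2 CPM for Vav1. The genes not called in this group were Grb2, Nck1, Plcg1, Cbl and Cblb, with log2 fold changes from -0.39 for Nck1 to 0.96 for Grb2.

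Sla2, an adaptor that dampens receptor signaling, was the gene called lower. It was at 154, 139 and 216 CPM in WT and at 66.9, 81.2 and 82.2 CPM in sST2-KO, a log2 fold change of -1.14 (SE 0.23, edgeR adjusted p = 0.0186). Its level in WT was far above those of the T cell receptor genes. Sla2 shares 766 exon bases with Rab5if on the opposite strand, listed under the older symbol 1110008F13Rik, which was at 166, 175 and 243 CPM in WT and at 76.5, 89.5 and 102 CPM in sST2-KO. The log2 fold change of Rab5if was -1.12 (edgeR adjusted p = 0.0190), and without knowledge of strand the reads of Sla2 and Rab5if cannot be told apart. Under total-count scaling the log2 fold change of Sla2 was -0.87, below the fold needed for a call.

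Among genes of later signaling, 6 of 13 were called higher and none lower, against 9.04% and 7.1% of all genes tested. Their median log2 fold change was 0.96. Prkcq, the protein kinase C isoform of the T cell synapse, had the largest at 3.20 (SE 0.48, edgeR adjusted p = 0.0136), and Stim1, the calcium sensor of the endoplasmic reticulum found in most cells, the smallest at 0.10 (SE 0.30, edgeR adjusted p = 0.837). The value of Stim1 turned to -0.29 without sST2-KO replicate 1. Prkcq was at 5.32, 2.07 and 2.84 CPM in WT and at 25.6, 20.3 and 49.0 CPM in sST2-KO.

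The ligands of CD2, CD28 and ICOS are made by antigen-presenting and other cells. Of these 4 genes, Cd80 and Cd48 were called higher, against 9.04% of all genes tested. Cd80, a ligand of CD28, was at 1.68, 1.13 and 1.60 CPM in WT and at 3.41, 9.26 and 23.4 CPM in sST2-KO, so its sST2-KO libraries ranged widely, and its log2 fold change was 3.02 (SE 0.70, edgeR adjusted p = 0.0267). Cd48, the ligand of CD2, was at 11.9, 8.29 and 5.92 CPM in WT and at 27.9, 29.2 and 55.2 CPM in sST2-KO, a log2 fold change of 2.10 (SE 0.37, edgeR adjusted p = 0.0155). Cd86, the other ligand of CD28, overlapped between the groups and had a log2 fold change of 0.69 (SE 0.40, edgeR adjusted p = 0.252). Icosl, the ligand of ICOS, was at 7.18 to 9.42 CPM in WT and at 73.0, 12.2 and 14.9 CPM in sST2-KO, and with replicate 1 far above the others it did not pass the test (log2 fold change 2.03, edgeR adjusted p = 0.0714).

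Ptprc encodes CD45, the phosphatase that keeps LCK active and that all leukocytes carry. It was at 40.1, 30.8 and 24.3 CPM in WT and at 125, 174 and 283 CPM in sST2-KO, a log2 fold change of 2.61 (SE 0.35, edgeR adjusted p = 0.0123). The mean log2 level of the 9 T cell receptor genes minus the log2 level of Ptprc, each with 0.5 CPM added, was -4.07, -3.49 and -3.34 in WT and -3.05, -3.48 and -3.90 in sST2-KO. The groups overlapped, and the mean difference of 0.16 was within the SDs of 0.387 in WT and 0.428 in sST2-KO (exact two-sided permutation p = 0.6). With 3 libraries against 3 this test cannot give a p below 0.1. It could therefore neither detect nor exclude a difference between the genotypes in the T cell receptor genes relative to Ptprc.

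Markers of other leukocytes were counted in the same libraries, where 9.04% of all genes tested were called higher. Of 6 NK cell markers, 5 were called higher, and the sum of all 6 was 11.8 to 18.0 CPM in WT and 46.6 to 84.6 CPM in sST2-KO. The uncalled marker was Ncr1, with a log2 fold change of 1.55 (edgeR adjusted p = 0.0719). Klrk1 made up the largest part of the sum in sST2-KO, at 18.1, 24.4 and 29.2 CPM. Whether these transcripts came from NK cells or from T cells was not tested. Of 6 macrophage markers, only Lyz2 was called higher and 3 overlapped between the groups, with sums of 446 to 641 CPM in WT and of 1059, 903 and 4535 CPM in sST2-KO replicates 1 to 3. Of 5 neutrophil markers, only Csf3r was called higher and 3 overlapped between the groups, with sums of 29.5 to 129 CPM in WT and 139 to 678 CPM in sST2-KO. sST2-KO replicate 3, the highest in macrophage and neutrophil markers, exceeded the other sST2-KO libraries only slightly in the sum of the T cell receptor genes.

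The T cell receptor genes were therefore also set against the NK cell and macrophage markers within each library, on the log2 scale. Relative to the mean of the NK cell markers they were at -0.47, -0.02 and 0.18 in WT and at 1.14, 0.20 and 1.11 in sST2-KO, a difference of 0.92. Relative to the macrophage markers they were at -4.87, -4.66 and -4.29 in WT and at -2.69, -2.52 and -4.20 in sST2-KO, a difference of 1.47. In both ratios the sST2-KO libraries were above the WT libraries, narrowly so for sST2-KO replicate 2 against the NK cell markers and for sST2-KO replicate 3 against the macrophage markers. The exact two-sided permutation p was 0.1 for each, the smallest possible, and 0.125 after adjustment over the 5 ratios, and the NK cell ratio was chosen after the values had been seen. With 1 CPM in place of 0.5 CPM added, the groups overlapped in the macrophage ratio (exact permutation p = 0.2), and they did so too with the ratio of summed CPM (exact permutation p = 0.3), where sST2-KO replicate 3 was below WT replicates 2 and 3.

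The other lists describe what else the tissue pieces held. Of the 5 B cell markers, 3, among them Ms4a1 and Pax5, were under 1 CPM in every library, and the sum was 0.933 to 2.96 CPM in WT and 2.73 to 5.78 CPM in sST2-KO. Of the thymocyte markers, Rag1, Rag2, Dntt and Ptcra were under 1 CPM in every library, and only Cd1d1, which other tissues express, was tested. Of the lymph node stroma markers in the table, Ccl19, Cr2 and Glycam1 were under 1 CPM in every library, and Ccl21a was at 0 except for 1.19 CPM in sST2-KO replicate 2. The remaining one, Cxcl13, was well expressed, at 58.8, 19.3 and 54.5 CPM in WT and at 181, 15.9 and 78.4 CPM in sST2-KO. Its groups overlapped, and its log2 fold change of 1.06 did not pass the test (edgeR adjusted p = 0.364).

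The labelled tissue was checked by 8 brown adipocyte markers, which summed to 19036 to 28635 CPM in WT and 4216 to 8580 CPM in sST2-KO. Of the 8, 6 were called lower, against 7.1% of all genes tested. Skeletal muscle markers summed to 1176, 20.2 and 6.16 CPM in WT replicates 1 to 3 and to 6158, 3384 and 14319 CPM in sST2-KO replicates 1 to 3. Of these markers, 1 of 8 was called higher, against 9.04% of all genes tested. In all 8, every sST2-KO library was above every WT library, against 21.8% of all genes. WT replicate 1 held far more muscle RNA than the other WT libraries. The summed T cell receptor level was 20.0, 23.3 and 20.2 CPM in WT replicates 1 to 3. All 9 T cell receptor genes remained called without WT replicate 1, where 1105 of all genes tested were called higher. The WT libraries left in that fit held the least muscle RNA, so it does not separate genotype from muscle content. The part of tissue makeup in the T cell receptor result was not tested.

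**Figure D4:**
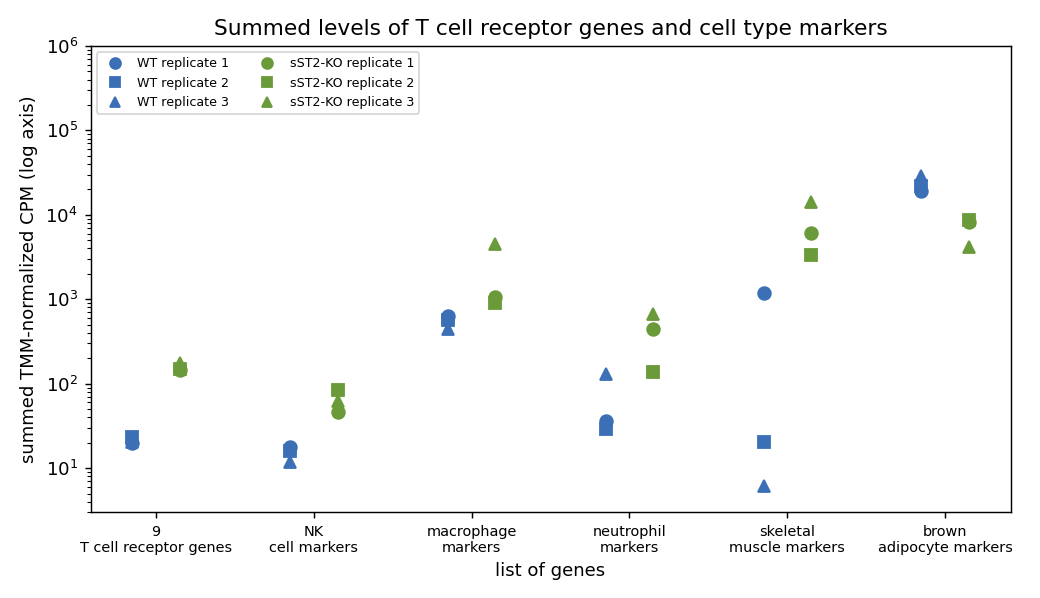
Summed TMM-normalized CPM (log axis) of the 9 T cell receptor genes and of marker lists of other cell types in each library, with blue symbols for WT and green symbols for sST2-KO. The sum of the T cell receptor genes is 145 to 174 CPM in sST2-KO and 20.0 to 23.3 CPM in WT, while macrophage and muscle markers spread far more among the sST2-KO libraries.

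The genes outside the list whose levels most resembled the mean of the 9 T cell receptor genes over the 6 libraries were Il18rap, a subunit of the IL-18 receptor, Sumf2, Slc38a1, an amino acid transporter, Camk4, a calcium-dependent kinase, and Nudt21, a factor of mRNA 3′ end processing. Pearson's r ran from 0.998 for Il18rap to 0.995 for Nudt21, on log2 levels with 0.5 CPM added. The log2 fold changes were 2.53 for Il18rap, 0.77 for Sumf2, 2.59 for Slc38a1, 3.05 for Camk4 and 0.67 for Nudt21, so likeness in pattern did not mean likeness in size. The 6 points share libraries and form separate groups by genotype, and 436 of the 14283 genes considered reached an r of at least 0.95.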

How the data were processed

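Poly-A-selected libraries from BAT of 3 WT and 3 sST2-KO mice were sequenced as paired-end reads of 150 bases. The authors used HISAT2 for alignment to mm39 and htseq-count for counting, and the deposited table holds these raw counts per gene symbol, without normalization. The submitters' processing notes name HISAT2 2.2.1 and FastQC 0.12.1. The strand setting of the counting is not given in the sources used here. Of 35976 rows, 11377 held no count in any library, 27 symbols had become dates, and the table had 0 sample columns that went unused.

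The analysis ran in edgeR 4.0.16 (R 4.3.3). filterByExpr kept 14542 genes, among them all 9 T cell receptor genes, of which Cd3g and Cd28 had WT libraries with under 10 counts. TMM factors were 0.825 to 0.996 in WT and 1.03 to 1.14 in sST2-KO. The groups were compared by glmQLFit and glmQLFTest with no covariate, Benjamini-Hochberg adjustment over all genes tested and a minimum fold of 2. The standard error was the log2 fold change divided by the square root of F, and the biological coefficient of variation common to all genes was 0.325. A total of 5 ratios within libraries were compared by exact two-sided permutation of the 6 libraries, with 0.5 CPM added. Only the edgeR and DESeq2 fits were tested on simulated counts. The standard errors come from the edgeR fit and so include the spread between libraries. The floor was set at 3 counts per library, and the lower bounds from it hold no error term.

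The 9 genes, the pathway and marker lists and the rule for named genes were chosen with earlier results of these data known. Of the pathway list, the text names those the rule lists, the largest and smallest change of each group, and otherwise Sit1, Trat1, Pag1, Ubash3a, Icosl and the 5 uncalled adaptors and enzymes, which were picked after their values were seen, as were the neighbors Pou2f1, Zgpat and Rab5if. The results of some single genes on these lists are not reported here, though the counts over a list include them and the plots do not. Genes most like the 9 were the 5 with the highest Pearson's r among tested genes with a mean of at least 1 CPM. The results were recomputed with RLE factors or total counts, without a filter or with at least 10 counts in every library, with robust estimation, without a minimum fold, with the replicate number as a block, with DESeq2 1.42.0 and without each library. Positions, exons and coding sequences are from GENCODE on GRCm39. Promoters are from RefSeq (table of build GRCm38.p6), placed on GRCm39 by exact match. Between libraries of 1 group the chi-square per degree of freedom was 36.6 to 104, far above sampling noise, and no library repeated another. Figures used matplotlib 3.10.9 (Python 3.11.15).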

Additional observations from a re-analysis of the deposited data

How the results depend on the processing

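All 9 T cell receptor genes remained called under RLE factors, total counts, no filter, robust estimation, no minimum fold and DESeq2 (DESeq2 adjusted p from 1.73e-23 to 6.32e-08), and in the fits that left out 1 library except that without WT replicate 3, where 5 were called. With at least 10 counts in every library, 7 of them could be fitted and all 7 were called, with 1015 genes called higher in all. Scaling by total counts moved their median log2 fold change to 3.24 and left 0 genes of the pathway list called lower, and made the log2 fold change of Cd4 pass. Over the fits that left out 1 library, the genes called numbered 36 to 1383 higher and 22 to 998 lower, the T cell receptor genes 5 to 9, and the pathway list 6 to 35 higher and 0 to 1 lower, and the log2 fold changes of the 9 genes ran from 1.85 to 3.88. The lowest of these counts came without WT replicate 3. Without WT replicate 2, 391 genes were called higher and 480 lower, and without sST2-KO replicate 3, 683 and 641. Among 19 other named genes of the pathway, 10 lost their call without WT replicate 3 (Cd5, Cd6, Ptprc, Lcp2, Vav1, Themis, Prkcq, Cd80, Cd48 and Sla2, edgeR adjusted p of 0.0517 to 0.101), 3 without WT replicate 2 (Lcp2, Cd80 and Cd48, 0.0514 to 0.0864) and 1 without WT replicate 1 (Cd80, 0.0638). Stim1, which was not called, changed sign without sST2-KO replicate 1, to -0.29, and ran up to 0.31 without other libraries. The cause of these differences was not tested. The difference of the T cell receptor genes relative to Ptprc ran from -0.06 to 0.37 and that relative to macrophage markers from 1.16 to 2.00 over the libraries left out. With 1 CPM added they were -0.06 and 1.24, and with summed CPM 0.33 and 1.31, with exact permutation p of 0.2 and 0.3 for the macrophage ratio.

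The replicate numbers do not pair the mice in the labels, and the correlations of same-numbered deviations from the group means were -0.06, 0.22 and -0.32, so the numbers were not used as a pairing. With the replicate number as a block, 2 residual degrees of freedom remained and edgeR called 0 genes higher, 0 lower, 0 of the T cell receptor genes and 0 of the pathway list higher or lower. The adjusted p of the 9 genes was then 0.0644 to 0.0664, all 9 had an unadjusted p under 0.05, as did 4623 genes in all, and their log2 fold changes were 1.91 to 3.57. WT libraries held 3 to 57 counts of each T cell receptor gene, which limits the precision of the WT levels.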
